A study of Mus musculus with 9 samples.

Results

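The mRNAs of 10 genes that move, split, rebuild or use the amino acid arginine were followed in primary murine microglia after an inflammatory or an alternative stimulus. They are Nos2 and Gch1 (nitric oxide synthase and its cofactor), Arg1 and Arg2 (arginases), Ass1 and Asl (citrulline recycling), Slc7a1 and Slc7a2 (arginine transporters), and Odc1 and Sat1 (polyamine enzymes). Members were the rows of the expression table with these gene symbols, 1 row per gene, so that 10 of 21212 rows were taken. Microglia were M1-skewed with 100 ng/ml LPS, a bacterial endotoxin, M2a-skewed with 20 ng/ml IL-4, or kept resting with an equal volume of PBS, in each case for 4 h and on 3 whole-transcript exon arrays per condition. All cells came from brains of wild-type CD-1 pups aged P0 or P1, pooled by litter, and had been grown for 5 to 7 days with 10 ng/ml each of M-CSF and GM-CSF before a night without serum. The values are log2 expression values on which 1 unit is a doubling. Levels were compared between arrays for the same gene but not between genes, except that markers were set against the array median. The sources do not state that the replicates of a condition were separate preparations, so p-values reflect only how far these arrays scatter, and that scatter may be technical.

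Arginine enters macrophages and microglia through cationic amino acid transporters and is then open to competing enzymes. Nitric oxide synthase oxidizes it to nitric oxide and citrulline, and citrulline can be rebuilt into arginine, whereas arginase splits it into urea and ornithine, from which polyamines and proline are made. In mouse macrophages, Nos2 is the usual marker of classical activation by endotoxin and Arg1 that of alternative activation by IL-4.

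Replicate 3 of LPS and replicate 3 of PBS stood apart from the other arrays of their conditions. All 13 measured markers of motile cilia were above both other replicates on each of these arrays, and the median of this list ranged over arrays from 6.58 to 8.90 with LPS, from 8.41 to 8.97 with IL-4 and from 6.75 to 9.27 with PBS. Of 14 microglia markers, 9 were above both other replicates on LPS replicate 3 and 13 on PBS replicate 3. On all 9 arrays, 10 of the 14 microglia markers lay above the array median, but so did 10 of 12 astrocyte and 11 of 12 fibroblast and meningeal markers. Another 3 microglia markers, Tmem119, Gpr34 and Siglech, lay below it on all 9 arrays. The share of all rows above the median on every array was not counted. Of 8 neutrophil markers, 7 lay below the array median on all 9 arrays. These are bulk RNA samples, in which fewer cells of a type and less RNA per cell cannot be told apart, and the part of other cells in the results below was not tested. Comparisons are therefore given also on 7 arrays, without both of these replicates, but that choice brings a gap of its own. On 7 arrays, 13 of 13 motile cilia, 8 of 12 astrocyte and 5 of 10 oligodendrocyte markers were called higher with IL-4 than with PBS, against 0 of each on 9 arrays. For LPS against IL-4 on 7 arrays, all 13 motile cilia markers were called lower, against 1 on 9 arrays. For LPS against PBS on 7 arrays, 5 of the 13 were called lower, against 0 on 9 arrays. Of all rows, 30.1% were called on 7 arrays for IL-4 against PBS, 62.1% for LPS against IL-4 and 47.4% for LPS against PBS.

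With LPS, 6 of the 10 genes were higher than with PBS and none was lower (limma, adjusted p under 0.05), where 37.8% of all rows were called, 15.4% higher and 22.4% lower. Those that rose were Nos2, Gch1, Slc7a2, Ass1, Slc7a1 and Odc1. With IL-4, 3 of 10 were higher than with PBS and none was lower, where 5.40% of all rows were called, 3.35% higher and 2.05% lower, and these were Arg1, Slc7a2 and Slc7a1. Between the stimuli, 4 genes were higher with LPS than with IL-4 (Nos2, Gch1, Arg2 and Slc7a2) and 1 was lower (Arg1), where 46.9% of all rows were called, 21.0% higher and 25.9% lower. The median log2 difference of the 10 genes was 0.78 for LPS against PBS, 0.21 for IL-4 against PBS and 0.43 for LPS against IL-4, while the median over all rows was 0.0051, −0.0166 and 0.0294 in the same order of comparisons. At an unadjusted p under 0.05, 0 of the genes were lower in LPS against PBS and 1 was lower in IL-4 against PBS (Sat1). On 7 arrays, 8 genes were higher and 1 lower with LPS than with PBS (47.4% of all rows called), 4 were higher and 3 lower with IL-4 than with PBS (30.1%), and 6 were higher and 1 lower with LPS than with IL-4 (62.1%). The motile cilia markers move with the conditions on the 7 arrays, and their part in these counts was not tested. The IL-4 count was the least steady. It was 6 genes without PBS replicate 3 (9.58% of all rows called). It was 1 gene, Slc7a2, without IL-4 replicate 2 (2.2%) or without IL-4 replicate 3 (2.22%). The methods' t-test takes each row's spread from that row alone. After the same adjustment it called 3 genes for LPS against PBS (25% of all rows) and 0 for IL-4 against PBS (3.38%).

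**Figure D1:**
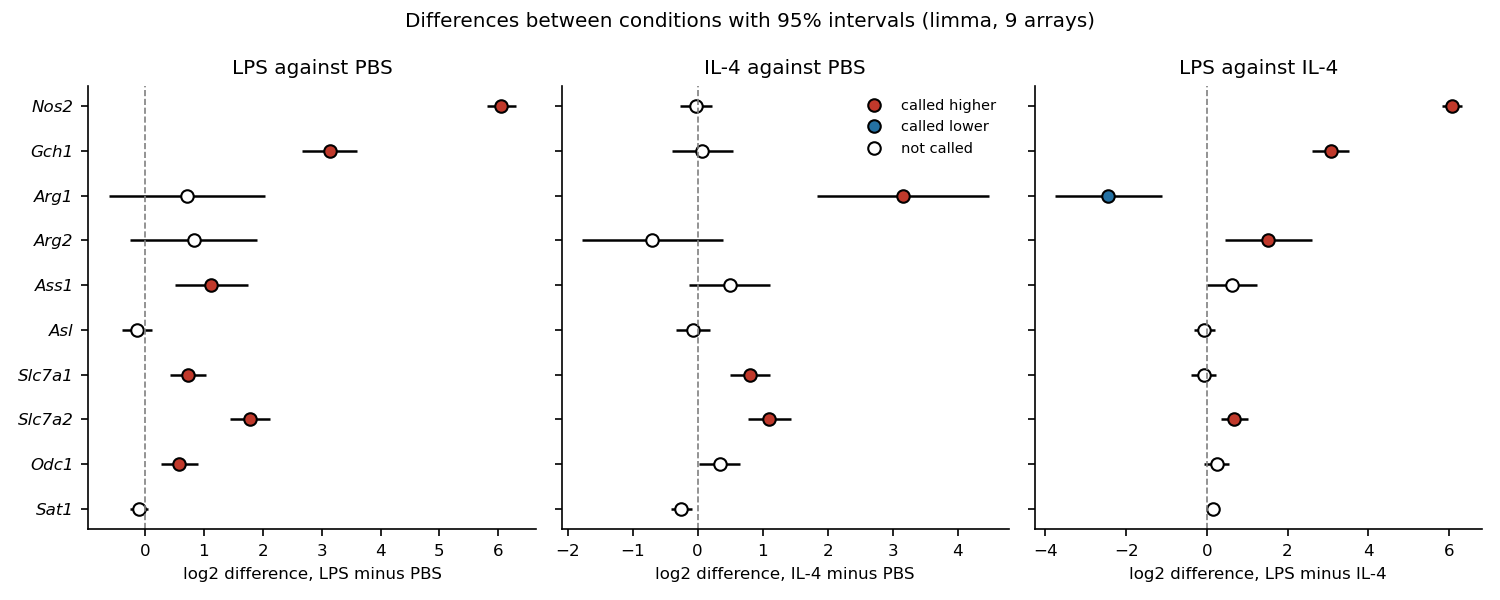
Log2 difference of each gene (rows) for LPS against PBS, IL-4 against PBS and LPS against IL-4, with bars for the 95% interval (n = 3 arrays per condition) and coloured points for an adjusted p under 0.05 (red higher, blue lower). The horizontal scales differ between panels. Nos2 (6.05) and Gch1 (3.14) stand far to the right for LPS against PBS, and Arg1 (3.15) does so for IL-4 against PBS.

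Nos2 encodes the inducible nitric oxide synthase of macrophages. Its level was 11.80, 11.75 and 11.62 with LPS, 5.71, 5.67 and 5.58 with IL-4, and 5.77, 5.84 and 5.42 with PBS. All 3 LPS arrays lay far above every other array, and the IL-4 and PBS arrays overlapped. The difference for LPS against PBS was 6.05 ± 0.11 (SE, n = 3 each), a 66.1-fold rise (limma adjusted p = 6.58e-09) that ranked 4 by size among the rises of all 21212 rows. LPS exceeded IL-4 by 6.07 ± 0.11 (adjusted p = 5.80e-09), and IL-4 against PBS gave −0.02 with a 95% interval from −0.27 to 0.22 (adjusted p = 0.919). The difference on same-numbered LPS and PBS arrays was 6.03, 5.91 and 6.20, and the rise was 5.97 on 7 arrays. By the root mean square difference over the 9 arrays, after subtraction of each gene's PBS mean, the rows most like Nos2 were Cxcl9, a chemokine induced by interferon (0.293), Tnfsf15, a cytokine of the TNF family (0.407), and Cd69, an early activation antigen (0.50).

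**Figure D2:**
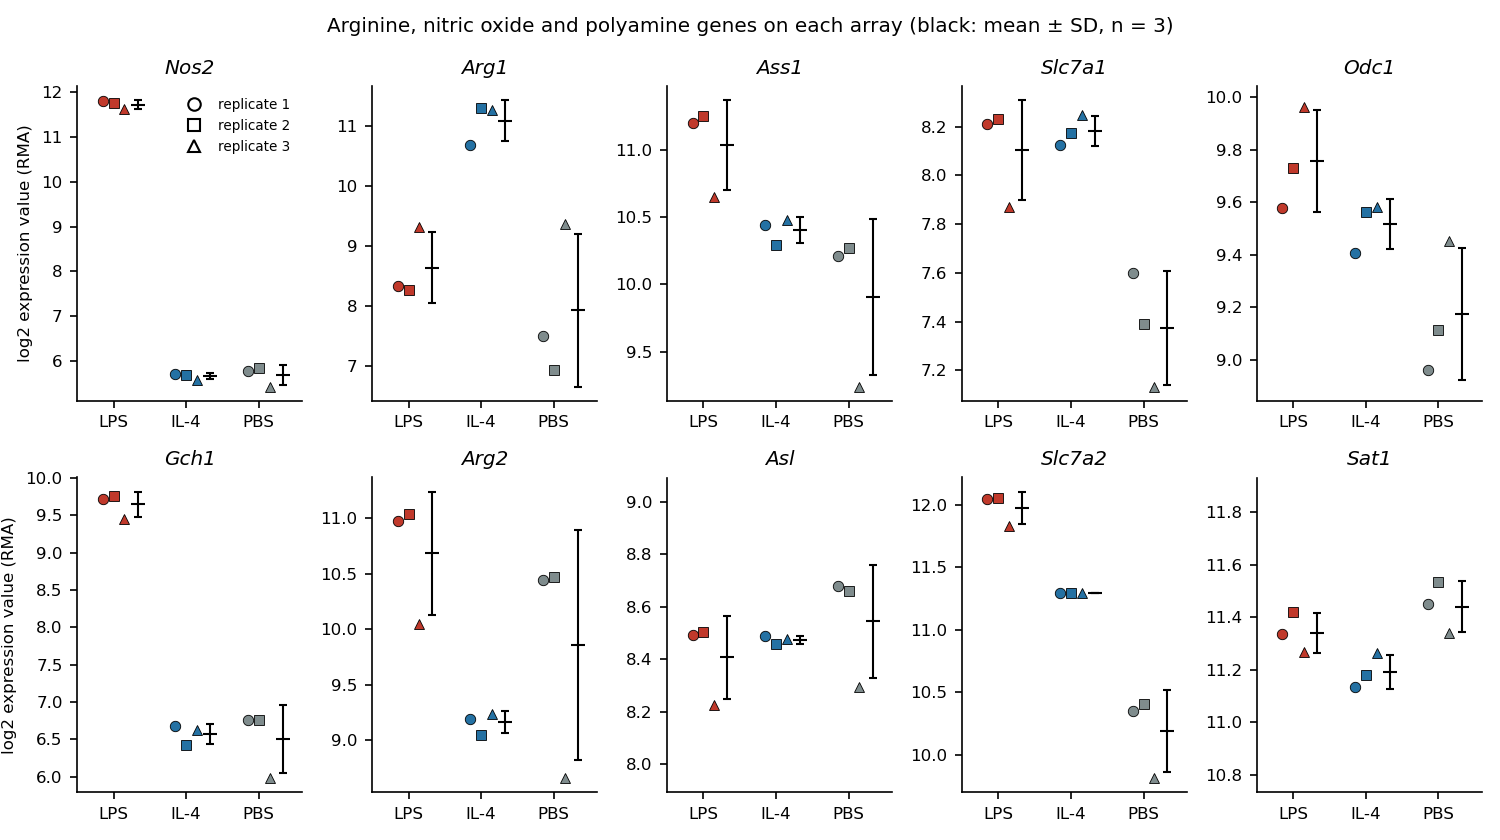
Log2 expression of each gene on each array, 1 panel per gene, with a symbol for each replicate and black marks for the mean ± SD of each condition (n = 3). Nos2 and Gch1 are high on the LPS arrays alone, Slc7a2 steps down through LPS, IL-4 and PBS, and the PBS points of Arg1 and Arg2 are spread widely.

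Gch1 encodes GTP cyclohydrolase, which makes the first and limiting step towards tetrahydrobiopterin, a cofactor that nitric oxide synthase needs. Its level was 9.72, 9.76 and 9.45 with LPS, 6.68, 6.43 and 6.62 with IL-4, and 6.76, 6.76 and 5.98 with PBS. The LPS arrays were again above all others, while PBS replicate 3 was the lowest array of the series for this gene. LPS exceeded PBS by 3.14 ± 0.20 (SE, n = 3 each), an 8.82-fold rise (limma adjusted p = 5.91e-06), and exceeded IL-4 by 3.07 ± 0.20 (adjusted p = 6.63e-06). On 7 arrays the rise over PBS was 2.98. IL-4 against PBS gave 0.07, with a 95% interval from −0.39 to 0.54 (adjusted p = 0.873). The IL-4 mean differed by 0.59 from PBS replicate 3 and by −0.19 from the mean of the other PBS arrays.

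Promoter sequence was at hand for 5 of the 10 genes in the RefSeq table of build GRCm38.p6, and 3 of these are printed because they hold a motif that was searched. These 3 genes rose with LPS, and so did Odc1, whose window held none of the motifs. The stretches are the 250 bases before the annotated start, read 5′ to 3′ on the strand of the gene, with motif matches in capitals. The search covered both strands of windows reaching 50 bases past the start, for the NF-κB consensus (found in 8.46% of 32851 windows), the STAT motif TTCNNNGAA (8.30%), the STAT6 motif TTCNNNNGAA (6.95%), the E-box CACGTG (7.15%) and the TATA box TATAAA (13.6%). The share of windows holding any of these motifs was not counted. A match is a description of the letters and was not tested as a binding site. The Gch1 stretch, chr14:47189414-47189663 on the minus strand, ends in a match to the NF-κB consensus at bases −10 to −1 from the start, which reads as a match on both strands, and holds the TATA letters on the opposite strand at −188 to −183.
Gch1: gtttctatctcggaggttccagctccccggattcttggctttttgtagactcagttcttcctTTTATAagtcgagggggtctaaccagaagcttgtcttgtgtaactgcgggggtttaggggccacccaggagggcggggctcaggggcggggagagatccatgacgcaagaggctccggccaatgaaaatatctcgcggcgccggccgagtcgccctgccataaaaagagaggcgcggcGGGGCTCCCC

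The Gch1 rise was not shared by the other measured genes of tetrahydrobiopterin synthesis and recycling with LPS, of which 0 of 6 were higher and 3 were lower than with PBS. That is a called share of 50%, where 37.8% of all rows were called, 15.4% higher and 22.4% lower. Spr (sepiapterin reductase, the last step of synthesis) fell by 0.44 on the log2 scale (limma adjusted p = 0.00988), Qdpr (which regenerates the cofactor) fell by 0.38 (adjusted p = 0.0165) and Pcbd2 (a dehydratase of the same cycle) fell by 0.15 (adjusted p = 0.0332). Pts, the middle step of synthesis, differed by −0.08 (adjusted p = 0.256), and Gchfr, the feedback regulator of GTP cyclohydrolase, by −0.24 with a 95% interval from −0.88 to 0.39. Leaving out PBS replicate 1 or PBS replicate 2 ended the Qdpr call, with differences of −0.32 and −0.33 (adjusted p 0.0595 and 0.0612). The Pcbd2 call was lost without LPS replicate 2 or 3, IL-4 replicate 2 or any PBS array (adjusted p between 0.0568 and 0.0962), with the replicate block over 6 arrays (adjusted p = 0.0571) and with array medians subtracted (−0.04, adjusted p = 0.570). None of the 6 was called with IL-4, where 5.40% of all rows were.

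Among 10 further genes of nitric oxide synthesis, its regulators and its receptor, 0 were higher and 5 lower with LPS than with PBS. The called share was 50%, where 37.8% of all rows were called and 22.4% were lower. The neuronal and endothelial synthases were not called, with differences of 0.06 for Nos1 (adjusted p = 0.525) and 0.06 for Nos3 (adjusted p = 0.615). Both were at a low level, with means of 6.13 and 6.42 with LPS and of 6.07 and 6.36 with PBS, where a missing call says little. Nos2 was thus the only synthase gene called higher. Nostrin, which encodes a trafficking partner of endothelial nitric oxide synthase, fell by 1.02 (adjusted p = 0.0170), and Nos1ap, an adaptor of the neuronal synthase, fell by 0.47 (adjusted p = 0.00126). Ddah1, which clears methylarginines that inhibit the synthases, fell by 0.30 (adjusted p = 0.00230). Leaving out PBS replicate 1 or PBS replicate 2 ended the Nostrin call, with differences of −0.96 and −0.84 (adjusted p 0.0540 and 0.0619). With IL-4, 1 of the 10 was lower (10% called, against 5.40% of all rows). This was Gucy1a1, a subunit of the nitric oxide receptor guanylyl cyclase (−0.55, adjusted p = 0.0286), at a low level of 5.06, 4.97 and 4.89 with IL-4. The Gucy1a1 call was lost without any 1 of the IL-4 arrays, PBS replicate 1 or PBS replicate 2 (adjusted p between 0.0716 and 0.123). Gucy1a2, another subunit, had 6.74, 6.62 and 6.98 with LPS, 7.76, 7.45 and 7.65 with IL-4, and 7.00, 7.10 and 7.34 with PBS. Its IL-4 arrays lay above every PBS array, without a call. Its LPS arrays lay below every PBS array, and it was among the 5 genes called lower with LPS.

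Arg1 encodes the cytosolic arginase and had the largest rise with IL-4 of the 10 genes. Its level was 8.34, 8.26 and 9.32 with LPS, 10.69, 11.30 and 11.27 with IL-4, and 7.50, 6.93 and 9.36 with PBS. The IL-4 arrays were above every LPS and PBS array, and the PBS arrays were spread widely, with replicate 3 far above the others. IL-4 exceeded PBS by 3.15 ± 0.58 (SE, n = 3 each), an 8.90-fold rise (limma adjusted p = 0.0182) that ranked 4 by size among the rises of all rows. The call was lost, with the direction kept, without IL-4 replicate 1, 2 or 3 or without PBS replicate 1 or 2 (differences from 2.65 to 3.35, adjusted p from 0.0532 to 0.0828), and the methods' t-test gave an adjusted p of 0.140. Without PBS replicate 3 the difference was 3.87 (adjusted p = 9.73e-04), on 7 arrays it was the same size (adjusted p = 7.65e-05), and against that PBS array alone the IL-4 mean was higher by 1.72. LPS was lower than IL-4 by 2.44 ± 0.58, a 5.44-fold difference (adjusted p = 0.00873), and this call held on leaving out any 1 array.

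Arg1 with LPS depended on the PBS array it was set against. The difference for LPS against PBS was 0.71 ± 0.58, with a 95% interval from −0.61 to 2.03 (limma adjusted p = 0.379). On arrays of the same number it was 0.83, 1.34 and −0.04. Numbers 1 and 2 thus had more Arg1 with LPS and number 3 did not. Without PBS replicate 3 the difference was 1.43 (adjusted p = 0.0142) and on 7 arrays 1.09 (adjusted p = 0.00847). The rows most like Arg1 over the 9 arrays were Rnase2a, a ribonuclease (root mean square difference 0.449), Flt1, a VEGF receptor (0.695), and Tmem26, a membrane protein (0.770).

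Arg2 encodes the mitochondrial arginase, and its order over the conditions was not that of Arg1. Its level was 10.97, 11.04 and 10.05 with LPS, 9.20, 9.05 and 9.24 with IL-4, and 10.45, 10.47 and 8.66 with PBS. All LPS arrays were above all IL-4 arrays, and PBS replicates 1 and 2 lay above the IL-4 arrays while PBS replicate 3 lay below them. LPS exceeded IL-4 by 1.52 ± 0.47 (SE, n = 3 each), a 2.88-fold difference (limma adjusted p = 0.0286). That call was lost without LPS replicate 1, LPS replicate 2 or any 1 of the IL-4 arrays (differences from 1.35 to 1.56, adjusted p from 0.0679 to 0.0911) and was 1.84 on 7 arrays (adjusted p = 6.37e-07). LPS against PBS gave 0.83 ± 0.47 (adjusted p = 0.211). On arrays of the same number this was 0.53, 0.57 and 1.39, higher with LPS on each, and when the 6 arrays were blocked by replicate number the same difference had an adjusted p of 0.0151, while the block over all 9 arrays gave 0.106. On 7 arrays it was 0.55 (adjusted p = 5.16e-04). IL-4 against PBS gave −0.70, with a 95% interval from −1.78 to 0.39 (adjusted p = 0.441). Its direction rested on the PBS array, since the IL-4 mean was 0.50 above PBS replicate 3 and 1.30 below the mean of the other PBS arrays. Without PBS replicate 3 the fall with IL-4 was called (−1.30, adjusted p = 0.0251).

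**Figure D3:**
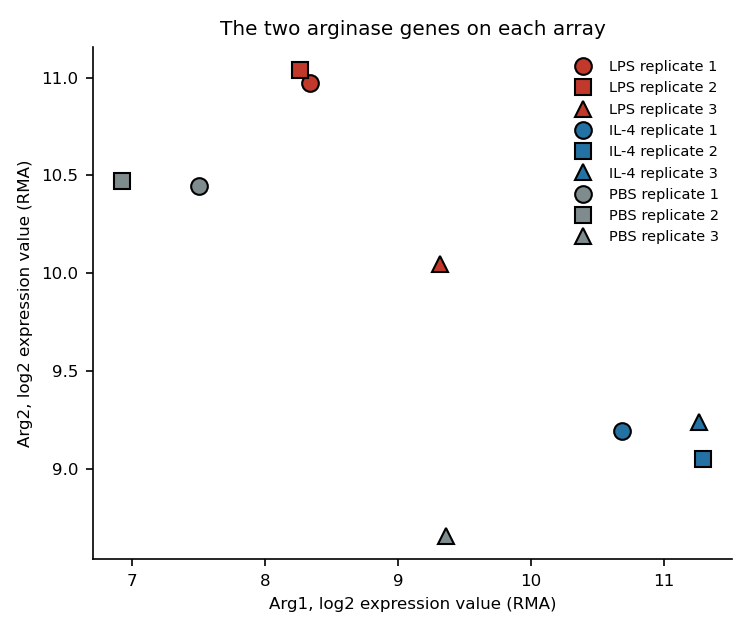
Log2 level of Arg2 against log2 level of Arg1, 1 point per array, marked by condition and replicate number. The IL-4 arrays sit at high Arg1 and low Arg2, and replicate 3 of LPS and of PBS lie away from replicates 1 and 2 towards higher Arg1 and lower Arg2.

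Ass1 encodes argininosuccinate synthase, which takes citrulline back towards arginine. Its level was 11.20, 11.25 and 10.65 with LPS, 10.44, 10.29 and 10.48 with IL-4, and 10.21, 10.27 and 9.24 with PBS. The LPS arrays were above all others, and LPS replicate 3 and PBS replicate 3 were each the lowest of their condition. LPS exceeded PBS by 1.12 ± 0.27 (SE, n = 3 each), a 2.18-fold rise (limma adjusted p = 0.0109), with 0.99, 0.98 and 1.41 on arrays of the same number. The call held on leaving out any 1 array, and the methods' t-test gave an adjusted p of 0.121. IL-4 against PBS gave 0.50, with a 95% interval from −0.13 to 1.12 (adjusted p = 0.343), and 0.16 on 7 arrays (adjusted p = 0.0995). Against PBS replicate 3 alone the IL-4 mean was higher by 1.16. LPS against IL-4 gave 0.63 (adjusted p = 0.0879), and was called without LPS replicate 3 (0.82, adjusted p = 0.0418), without PBS replicate 3 (adjusted p = 0.0107), with array medians subtracted (0.78, adjusted p = 0.0388) and on 7 arrays (0.82, adjusted p = 3.05e-05). The Ass1 stretch, chr2:31470020-31470269 on the plus strand, is shown for its E-box, which lies at −36 to −31.
Ass1: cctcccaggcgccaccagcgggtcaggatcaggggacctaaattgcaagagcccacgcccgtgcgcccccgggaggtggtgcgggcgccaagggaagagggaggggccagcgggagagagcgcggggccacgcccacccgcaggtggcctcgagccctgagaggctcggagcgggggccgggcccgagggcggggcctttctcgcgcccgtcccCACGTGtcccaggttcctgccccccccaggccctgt

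Asl encodes argininosuccinate lyase, the step that follows and releases arginine. Its level was 8.49, 8.50 and 8.22 with LPS, 8.49, 8.46 and 8.48 with IL-4, and 8.68, 8.66 and 8.29 with PBS. The conditions overlapped and no comparison was called. The differences were −0.14 for LPS against PBS (95% interval from −0.40 to 0.12, limma adjusted p = 0.392) and −0.07 for IL-4 against PBS (95% interval from −0.33 to 0.19, adjusted p = 0.763). Small falls were called on 7 arrays, of 0.17 with LPS (adjusted p = 0.0138) and of 0.19 with IL-4 (adjusted p = 0.00939), and without PBS replicate 3 alone the fall with LPS was 0.26 (adjusted p = 0.0499). Against PBS replicate 3 alone the IL-4 mean was higher by 0.18, so the direction with IL-4 rested on the PBS array. The recycling enzymes thus differed in their response to LPS in these arrays, Ass1 being called and Asl not, but a difference between the genes themselves was not tested.

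Both arginine transporters were higher with either stimulus than with PBS. Slc7a2 encodes a cationic amino acid transporter known in mouse macrophages for supplying arginine to nitric oxide synthase. Its level was 12.04, 12.06 and 11.83 with LPS, 11.29, 11.30 and 11.29 with IL-4, and 10.35, 10.41 and 9.81 with PBS. The conditions did not overlap, with LPS highest and IL-4 between LPS and PBS. The rise was 1.78 ± 0.15 with LPS (SE, n = 3 each, 3.44-fold, limma adjusted p = 2.37e-05) and 1.10 ± 0.15 with IL-4 (2.15-fold, adjusted p = 0.00416). LPS exceeded IL-4 by 0.68 ± 0.15 (1.61-fold, adjusted p = 0.00530). Each of these calls held on leaving out any 1 array and on 7 arrays, where the values were 1.67, 0.91 and 0.76 in the same order, while the methods' t-test gave an adjusted p of 0.0798 for IL-4 against PBS.

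Slc7a1 encodes the cationic amino acid transporter found in most tissues. Its level was 8.21, 8.23 and 7.87 with LPS, 8.12, 8.17 and 8.25 with IL-4, and 7.60, 7.39 and 7.13 with PBS. Every stimulated array was above every PBS array. The rise was 0.73 ± 0.13 with LPS (SE, n = 3 each, 1.66-fold, limma adjusted p = 0.00245) and 0.81 ± 0.13 with IL-4 (1.75-fold, adjusted p = 0.0112). Leaving out IL-4 replicate 2 or IL-4 replicate 3 ended the IL-4 call, with differences of 0.81 and 0.77 (adjusted p 0.0522 and 0.0592), as did the methods' t-test (adjusted p = 0.0804), which gave an adjusted p of 0.0569 for LPS against PBS. The stimuli were not told apart for this gene, with −0.08 for LPS against IL-4 and a 95% interval from −0.38 to 0.22 (adjusted p = 0.640). On 7 arrays the rises were 0.73 with LPS and 0.69 with IL-4. Of its promoter windows, the one at chr5:148392816-148393065 on the minus strand is shown because it held the STAT motif at −146 to −138 and a TATA box at −28 to −23, and the other held none of the motifs.
Slc7a1: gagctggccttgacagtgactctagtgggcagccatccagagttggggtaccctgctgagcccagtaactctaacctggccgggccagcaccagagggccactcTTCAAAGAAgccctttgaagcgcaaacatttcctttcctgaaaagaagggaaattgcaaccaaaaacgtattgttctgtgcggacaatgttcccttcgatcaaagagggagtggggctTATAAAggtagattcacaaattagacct

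Among 7 further genes of arginine and ornithine transport, 1 was higher and 2 were lower with LPS than with PBS. The called share of 42.9% was near the 37.8% of all rows. Slc25a15, the mitochondrial ornithine carrier, fell by 0.43 (limma adjusted p = 1.91e-04), and this call held on leaving out any 1 array. With IL-4, 1 of the 7 was lower (14.3% called, against 5.40% of all rows). This was Slc7a7, a subunit of the exporter of cationic amino acids (−0.43, adjusted p = 0.0205). Its call was lost without IL-4 replicate 1, 2 or 3 or PBS replicate 2 (adjusted p between 0.0634 and 0.0844).

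Odc1 encodes ornithine decarboxylase, the committed step of polyamine synthesis. Its level was 9.58, 9.73 and 9.96 with LPS, 9.41, 9.56 and 9.58 with IL-4, and 8.96, 9.11 and 9.45 with PBS. Every LPS array was above every PBS array, the IL-4 arrays overlapped with both, and replicate 3 was the highest of the LPS and of the PBS arrays. LPS exceeded PBS by 0.58 ± 0.14 (SE, n = 3 each), a 1.5-fold rise (limma adjusted p = 0.00990), with 0.62, 0.62 and 0.51 on arrays of the same number and 0.62 on 7 arrays. The call held on leaving out any 1 array, and the methods' t-test gave an adjusted p of 0.101. IL-4 against PBS gave 0.34, with a 95% interval from 0.03 to 0.66 (adjusted p = 0.209), and 0.48 without PBS replicate 3 (adjusted p = 0.0426). Against that PBS array alone the IL-4 mean was higher by 0.06. LPS against IL-4 gave 0.24 (95% interval from −0.08 to 0.56, adjusted p = 0.179) and 0.39 with array medians subtracted (adjusted p = 0.0261). The Odc1 promoter window held none of the motifs.

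Sat1 encodes spermidine/spermine acetyltransferase, which marks polyamines for oxidation or export. Its level was 11.34, 11.42 and 11.27 with LPS, 11.14, 11.18 and 11.26 with IL-4, and 11.45, 11.53 and 11.34 with PBS. Every IL-4 array was below every PBS array, by a small margin, and the LPS arrays overlapped with PBS and lay just above IL-4. IL-4 against PBS gave −0.25 ± 0.07 (SE, n = 3 each, 95% interval from −0.40 to −0.09), which missed the threshold (limma adjusted p = 0.0789) and passed it without PBS replicate 3 (−0.30, adjusted p = 0.0343) or after quantile normalization (adjusted p = 0.0367). LPS against PBS gave −0.10 (95% interval from −0.26 to 0.06, adjusted p = 0.296) and passed the threshold after quantile normalization (−0.19, adjusted p = 0.0212). LPS against IL-4 gave 0.15 (adjusted p = 0.102), and was called on 7 arrays (0.19, adjusted p = 0.0249) and with array medians subtracted (0.30, adjusted p = 0.0127). The Sat1 window also held none of the motifs.

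Of 11 further genes of polyamine synthesis and its antizymes, 2 were higher and 3 lower with LPS than with PBS. The called share of 45.5% was near the 37.8% of all rows. Sms, which makes spermine from spermidine, had 9.57, 9.60 and 9.25 with LPS and 8.89, 8.86 and 8.93 with PBS, a rise of 0.58 ± 0.10 (limma adjusted p = 0.00162). Azin2, an antizyme inhibitor, rose by 0.31 (adjusted p = 0.0120). Mtap, which salvages the methylthioadenosine that polyamine synthesis leaves, fell by 0.46 (adjusted p = 0.00106). Adi1, a later enzyme of the same salvage route, fell by 0.84 (adjusted p = 0.0198), a call that ended on leaving out PBS replicate 1 (−0.72, adjusted p = 0.0690) or PBS replicate 2 (−0.74, adjusted p = 0.0701). With IL-4, 1 of the 11 was higher (9.09% called, against 5.40% of all rows). Srm, which makes spermidine from putrescine, had 10.30, 10.35 and 10.36 with IL-4 and 9.99, 9.93 and 9.85 with PBS, a rise of 0.41 ± 0.07 (adjusted p = 0.0125). The Srm call was lost without IL-4 replicate 2, IL-4 replicate 3 or PBS replicate 2 (adjusted p between 0.0553 and 0.0633). Srm was lower with LPS than with IL-4 by 0.44 (adjusted p = 0.00100) and Sms was higher by 0.42 (adjusted p = 0.00869), so the synthases of spermidine and spermine differed between the stimuli in opposite directions.

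Of 9 further genes of polyamine breakdown, transport and hypusine formation, 2 were higher and 3 lower with LPS than with PBS (55.6% called, against 37.8% of all rows). Smox, which oxidizes spermine to spermidine, had 9.90, 9.86 and 10.33 with LPS and 9.22, 9.21 and 9.43 with PBS, a rise of 0.74 ± 0.12 (limma adjusted p = 0.00153). Atp13a2, a lysosomal polyamine exporter, fell by 1.19 ± 0.17 (adjusted p = 6.62e-04), and Sat2, a homolog of Sat1, fell by 0.96 ± 0.09 (adjusted p = 4.35e-05). Slc18b1, a vesicular polyamine transporter, had 8.18, 8.18 and 8.31 with LPS, 9.20, 9.15 and 9.10 with IL-4, and 8.82, 8.81 and 8.96 with PBS. LPS lay below PBS by 0.64 ± 0.06 (adjusted p = 7.26e-05) and IL-4 above it by 0.28 ± 0.06 (adjusted p = 0.0392). It was the only called gene among these 9 with IL-4 (11.1%, against 5.40% of all rows). The Slc18b1 rise with IL-4 was lost without LPS replicate 1 or 2, any 1 of the IL-4 arrays, or PBS replicate 1 or 2 (adjusted p between 0.0578 and 0.149), and the fall with LPS held on leaving out any 1 array.

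Of 8 further genes of the urea cycle and of ornithine, proline and creatine metabolism, 3 were lower and 0 higher with LPS than with PBS, a called share of 37.5% that is close to the 37.8% of all rows. Gamt, the last step of creatine synthesis, fell by 0.66 (limma adjusted p = 8.85e-04). Oat, which turns ornithine towards proline, fell by 0.44 (adjusted p = 0.00500). Aldh18a1, which makes the precursor shared by proline and ornithine from glutamate, had 8.06, 8.21 and 8.35 with LPS, 9.13, 9.20 and 9.18 with IL-4, and 8.76, 8.75 and 8.88 with PBS. It fell by 0.59 ± 0.08 with LPS (adjusted p = 3.93e-04) and was higher by 0.37 with IL-4 (adjusted p = 0.0318). It was the only called gene of the 8 with IL-4 (12.5%, against 5.40% of all rows). The Aldh18a1 rise with IL-4 was lost without LPS replicate 2, any 1 of the IL-4 arrays, or PBS replicate 1 or 2 (adjusted p between 0.0570 and 0.122).

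Over all 51 measured genes of these pathways besides the 10, 5 were higher, 19 lower and 27 not called for LPS against PBS (47.1% called, where 37.8% of all rows were called, 15.4% higher and 22.4% lower), with a median difference of −0.09. For IL-4 against PBS, 3 were higher and 2 lower (9.80% called, against 5.40% of all rows). For LPS against IL-4, 6 were higher and 21 lower (52.9% called, against 46.9% of all rows, 21.0% higher and 25.9% lower). The IL-4 count changed when single arrays were left out, and so did the share of all rows called. It was 0 genes without IL-4 replicate 2 (2.2% of all rows), IL-4 replicate 3 (2.22%) or PBS replicate 2 (2.33%). It was 1 without IL-4 replicate 1 (2.74%). Without PBS replicate 1 it was 1 higher and 1 lower (2.72%), and without LPS replicate 2 it was 1 higher and 2 lower (4.28%). Without LPS replicate 3 it was 7 higher and 3 lower (8.18%), and without PBS replicate 3 it was 6 higher and 4 lower (9.58%). After subtraction of each array's median, the LPS against PBS counts were 8 higher and 13 lower (43.3% of all rows called). Those for LPS against IL-4 were 14 higher and 14 lower (62.5%), so the split between rises and falls depended on the scaling. The methods' t-test called 2 higher and 12 lower for LPS against PBS (25% of all rows called). On 7 arrays the counts for LPS against PBS were 8 higher and 19 lower (47.4% of all rows called). Those for IL-4 against PBS were 11 higher and 7 lower (30.1% of all rows called). In that fit 13 of 13 motile cilia and 8 of 12 astrocyte markers were higher too, and their part in the counts was not tested. Of the 24 calls for LPS against PBS, 23 were kept on 7 arrays, 19 after quantile normalization, 18 with array medians subtracted and 13 by the methods' t-test. Microglia markers were lower in the same comparison at 9 of 14 genes with LPS (22.4% of all rows lower), with array medians from 9.13 to 9.82 with LPS and from 9.79 to 10.74 with PBS, and their part in these falls was not tested. Fibroblast and meningeal markers were higher at 7 of 12 genes with IL-4 (3.35% of all rows higher), with array medians from 9.14 to 9.24 with IL-4 and from 8.32 to 8.76 with PBS, and their part in the rises with IL-4 was not tested either.

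**Figure D4:**
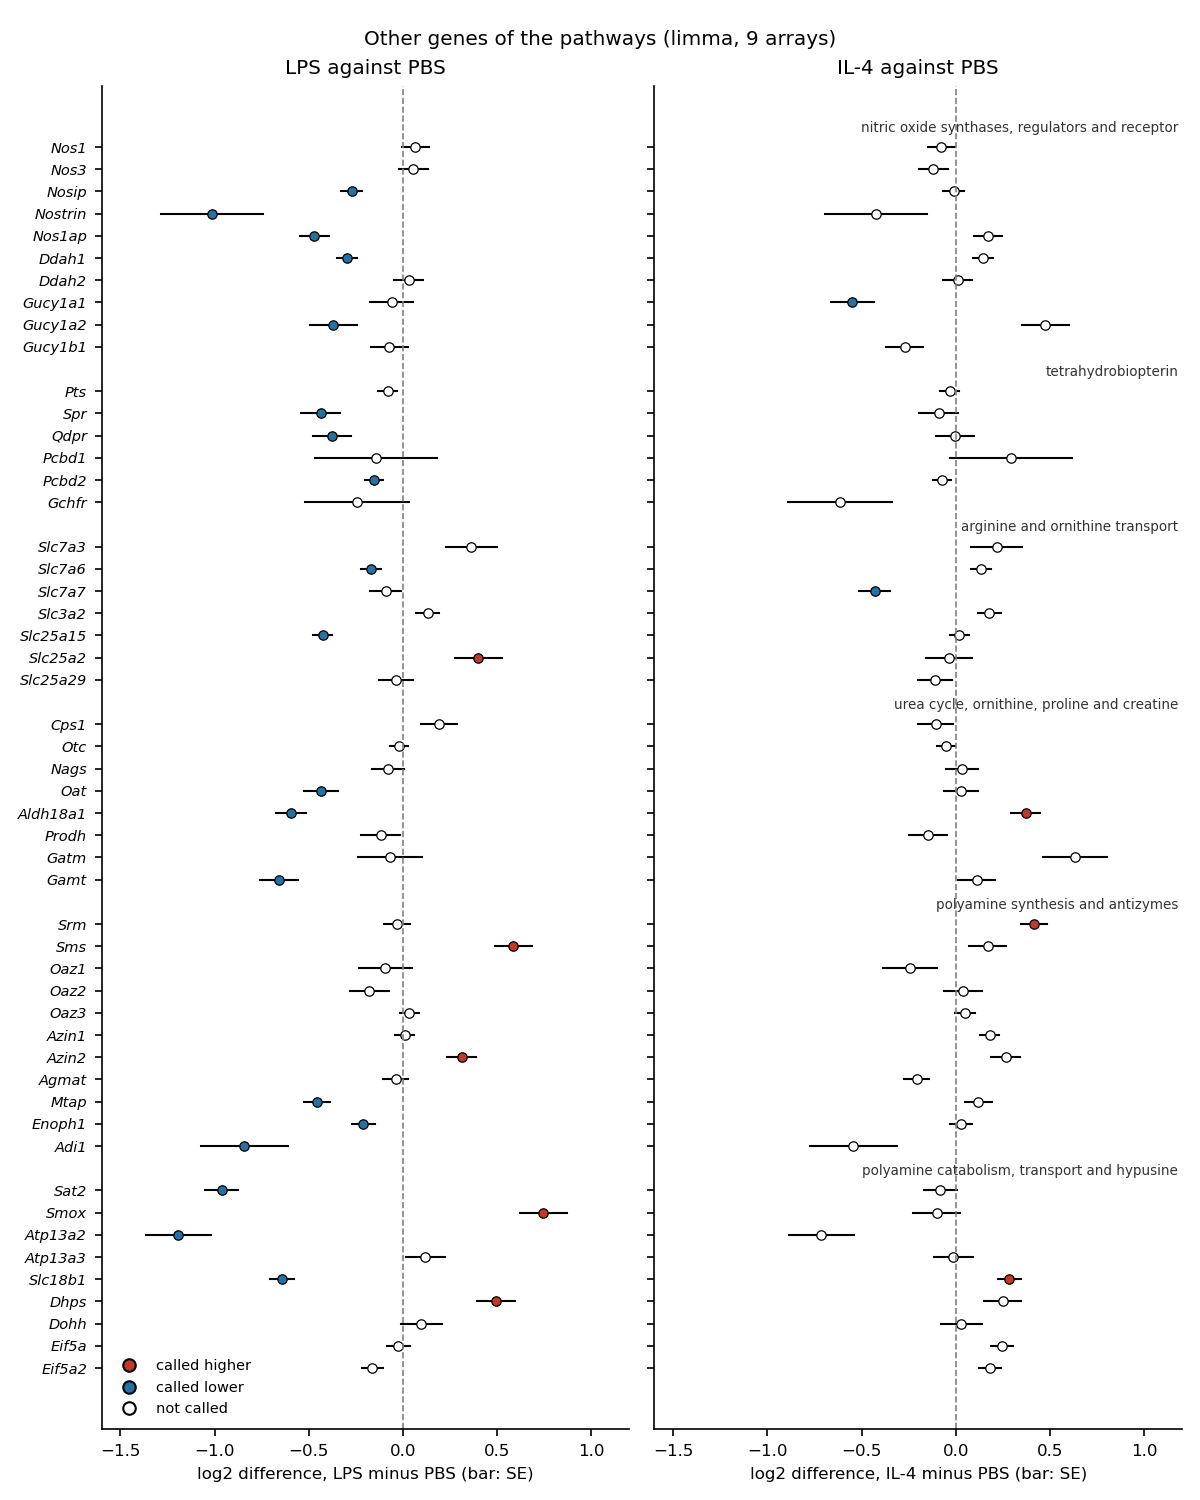
Log2 difference of each of the 51 further pathway genes by list, for LPS against PBS and IL-4 against PBS, with bars for the SE, red points for genes called higher and blue ones for genes called lower. For LPS, 5 points are red and 19 blue, and for IL-4, 3 are red and 2 blue.

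Replicate 3 departed from the other replicates in the same direction with LPS and with PBS for each of the 10 genes. Over all rows, the deviations of LPS replicate 3 and PBS replicate 3 from their condition means correlated at 0.80. The share of all rows that departed in the same direction on both arrays was not counted. On both arrays 8 of the genes were below both other replicates and Arg1 and Odc1 were above both, where 47.8% of all rows were below and 32.3% above on the LPS array and 48.7% and 31.5% on the PBS array. The departure from the mean of replicates 1 and 2 was 1.02 on the LPS array and 2.15 on the PBS array for Arg1, and −0.96 and −1.80 on these arrays for Arg2. For Ass1 it was −0.58 with LPS and −1.0 with PBS, and for Gch1 −0.29 with LPS and −0.78 with PBS. The arginase genes thus parted in opposite directions on the unstimulated array by more than Slc7a1, Odc1 or Ass1 differed between the stimuli and PBS. The motile cilia markers departed by a median of 1.72 on the LPS array and 1.84 on the PBS array. Oligodendrocyte markers were above both other replicates at 9 of 10 genes on the LPS array and 8 of 10 on the PBS array, and astrocyte markers at 8 and 10 of 12. Of the endothelial markers, 7 of 8 were below both other replicates on the LPS array and 5 of 8 on the PBS array. The part of these markers in the departures of the 10 genes was not tested. On IL-4 replicate 3 the departures of the 10 genes lay between −0.11 (Nos2) and 0.27 (Arg1).

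**Figure D5:**
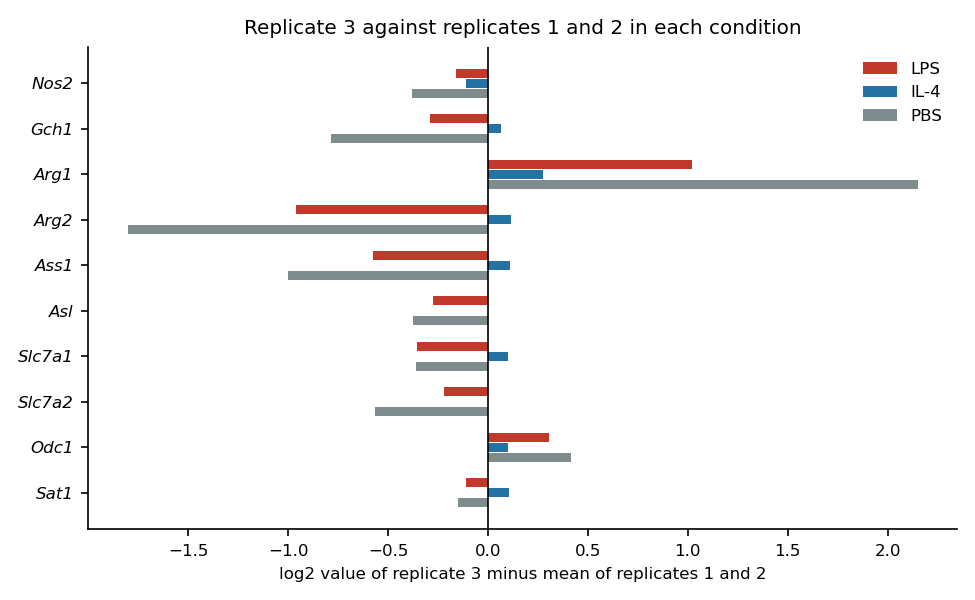
Departure of replicate 3 from the mean of replicates 1 and 2, in log2 units, for each gene with LPS, IL-4 and PBS. Arg1 and Odc1 lie above 0 and the other 8 genes below it with LPS and with PBS, and the PBS departures of Arg1 (2.15) and Arg2 (−1.80) reach furthest.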

How the data were processed

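The authors hybridized RNA of 9 samples to exon arrays and deposited log2 expression values made with RMA, which corrects the background, makes array distributions equal and summarizes the probes of each gene. Versions of RMA and affy are not given in the sources used here, and depth is limited by the 3 arrays per condition. Of 21212 rows, between 2.05 and 13.06, 18786 had 1 symbol, 6 several and 2420 none. Conditions came from the sample labels. A mean per condition was fitted to all rows and 9 arrays (limma 3.58.1 with eBayes, R 4.3.3), with Benjamini-Hochberg adjustment across the whole table, so calls mean an adjusted p under 0.05. The fit was tested on simulated data.

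Members and lists were chosen with earlier results of these data known. Named were all 10 members, up to 4 called genes per pathway list and comparison (57 listed, 51 measured), genes whose missing call is stated, and the 3 rows most like Nos2 and Arg1. Deviations from condition means correlated between same-numbered LPS and PBS arrays (0.578, 0.651 and 0.800), and these numbers were used to pair LPS and PBS. LPS replicate 1 with PBS replicate 2 (0.542) and LPS replicate 2 with PBS replicate 1 (0.605) correlated to a like degree. The correlations thus show that replicate 3 departed alike in both conditions, and a pairing of numbers 1 and 2 is not shown. Same-numbered arrays correlated less for IL-4 and PBS (0.339, −0.255 and 0.075) and for LPS and IL-4 (0.289, −0.228 and 0.059). Alternatives were the methods' t-test (Student), fits to 6 arrays, a trended and a robust eBayes, quantile normalization, weights for arrays, array medians subtracted, the dimmest 7070 rows left out, a replicate block, each array left out and, chosen with earlier results of these data seen, 7 arrays. Figures were drawn with matplotlib 3.10.9.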

Additional observations from a re-analysis of the deposited data

How the results depend on the processing

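No called difference of the 10 genes changed sign under any alternative run, and among the values from alternatives 543 kept their side of the threshold, 36 gained a call and 21 lost one. Leaving out 1 array gave 6 to 8 called genes for LPS against PBS, 1 to 6 for IL-4 against PBS and 4 to 6 for LPS against IL-4. In these fits 31.7% to 41.6%, 2.2% to 9.58% and 35.9% to 51.7% of all rows were called, in the same order. The methods' t-test called 3 genes for LPS against PBS (25% of all rows) and 0 for IL-4 against PBS (3.38%), where 4 had an unadjusted p under 0.05. For IL-4 against PBS, array weights called 8 genes (39.1% of all rows) and the 7 arrays called 7 (30.1%), where the main fit called 5.40% of all rows. Subtracted array medians called 8 for LPS against IL-4 (62.5% of all rows, against 46.9% in the main fit). The cause was not tested.

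With the replicate block over 9 arrays, 6, 4 and 7 genes were called for LPS against PBS, IL-4 against PBS and LPS against IL-4. Of all rows, 42.4%, 6.49% and 53.1% were called there. With the block over the 6 arrays of a comparison the counts were 7, 0 and 6 (47.5%, 1.35% and 42.9% of all rows). For the 0 of IL-4 against PBS limma gave 5 genes at an unadjusted p under 0.05. The arrays of IL-4 and PBS share only a number, and not every array correlated best with its own number. Among the 10 genes, the block over 6 arrays changed 1 call of LPS against PBS, that of Arg2, and the block over 9 arrays changed none. Of the 24 calls of other pathway genes in that comparison, 22 were kept with the block over 6 arrays and 23 with that over 9.

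Subtracting array medians moved the median over all rows to 0.12 for LPS against PBS and 0.18 for LPS against IL-4. The share of called rows that were higher was then 63.9% rather than 40.8% for LPS against PBS, 50.3% rather than 62.0% for IL-4 against PBS and 72.1% rather than 44.8% for LPS against IL-4.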
